A study of Mus musculus with 14 samples.

Results

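The genes described here are 31 genes that fibroblasts of the heart express, collagens left out. They were chosen by name and found on the array as the probe sets annotated to exactly 1 of these symbols. All 31 had a probe set, out of 18193 named genes on the array. They held 54 probe sets, of which 44 were kept because they read above a filter value, a log2 value of 5.75, in 3 or more arrays. That value is the median over the table. Among the kept probe sets of a gene the one with the highest mean stands for it, so that 31 of the 12260 genes tested were members. Left ventricles came from male C57BL/6 mice, either wild type (WT) or knockout (KO) for Hsp22, a small heat shock protein encoded by Hspb8. Basal hearts, with no pressure overload, gave 3 WT and 3 KO arrays. Hearts taken 3 days into overload from transverse aortic constriction (TAC) gave 4 WT and 4 KO arrays. The labels give no age, do not say in which cells the gene is missing, and name no sham-operated group. They do not say that each array was a separate animal either, so p-values measure the spread between samples.

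Cardiac fibroblasts make and maintain the matrix between muscle cells. In the healthy ventricle they rest, held in their lineage by transcription factors such as Tcf21 and receptors such as Pdgfra, and they make small matrix proteins and serum-like secreted proteins. Under load they divide, switch on the homeobox factor Meox1, the surface protease Fap and provisional matrix such as fibronectin, and some become contractile myofibroblasts. The members fall into 7 resting genes (Tcf21, Pdgfra, Scara5, Pi16, Clec3b, Dpt, Tnxb), 5 activation genes (Fap, Meox1, Fn1, Nox4, Cilp) and 19 others ordered here by role. Several are not made by fibroblasts alone: endothelial cells and macrophages express Vim and Fn1, smooth muscle expresses Mgp, and muscle cells express Gsn. In whole ventricle RNA, fewer cells of a type and less RNA per cell cannot be told apart.

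The arrays had medians of 5.7 to 5.8 on the log2 scale. Hspb8 read 10.26 or more in every WT array and 5.92 or less in every KO array on 2 of its 3 probe sets. Cardiomyocyte genes were high throughout: the summed level of 12 of them, on the log2 scale, lay between 17.39 and 17.78 in all 14 arrays. Over all genes, which are not independent replicates, the lowest correlation between 2 TAC WT arrays was 0.918. It was 0.97 in TAC KO and 0.983 in basal WT. TAC WT 3 stands apart in its marker sums. It had the lowest cardiomyocyte sum (17.39) and the highest sums of macrophage genes (14.56, against 12.81 to 13.17 in the other TAC WT arrays) and cell cycle genes (13.34, against 11.29 to 12.45). The dates in the array names differ between the basal and the TAC arrays, so array date and surgery cannot be told apart. Basal KO 3 carries another day than the other basal arrays.

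RefSeq promoters (GRCm38.p6) were at hand for 18 of the 31 genes. They hold 20 windows of 250 bases before an annotated transcript start. Of these, 10 lie at the outermost start of their gene and 10 at a start further inside it. The windows of 4 genes are shown. Cilp and Tnxb had the largest rise and the largest fall after TAC, and the paralogs Pcolce and Pcolce2 differed in how they responded. Capitals mark matches, on either strand, to the AP-1 site TGANTCA, the SMAD site CAGACA, the TEAD site GGAATG, the E-box CAGCTG that basic helix-loop-helix factors bind, the homeobox core TAATTA and the TATA box TATAAA. Cilp lies at chr9:65264930-65265179 (plus strand), Tnxb at chr17:34670285-34670534 (plus), Pcolce at chr5:137611405-137611654 (minus) and Pcolce2 at chr9:95637378-95637627 (plus), each read 5′ to 3′ along its gene. The windows of Cilp and Pcolce2 end at the outermost start. The start behind the Tnxb window lies 10082 bases inside the gene, and that behind the Pcolce window 118 bases inside.
Cilp: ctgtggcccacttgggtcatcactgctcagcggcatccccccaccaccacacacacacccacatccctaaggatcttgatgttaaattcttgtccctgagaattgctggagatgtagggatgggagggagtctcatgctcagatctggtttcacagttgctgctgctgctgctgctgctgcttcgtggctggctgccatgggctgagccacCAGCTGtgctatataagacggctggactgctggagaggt
Tnxb: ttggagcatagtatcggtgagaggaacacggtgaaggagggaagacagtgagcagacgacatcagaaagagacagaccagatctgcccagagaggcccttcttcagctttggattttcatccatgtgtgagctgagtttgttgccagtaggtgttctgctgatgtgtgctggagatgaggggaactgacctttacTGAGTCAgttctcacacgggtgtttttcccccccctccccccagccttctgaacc
Pcolce: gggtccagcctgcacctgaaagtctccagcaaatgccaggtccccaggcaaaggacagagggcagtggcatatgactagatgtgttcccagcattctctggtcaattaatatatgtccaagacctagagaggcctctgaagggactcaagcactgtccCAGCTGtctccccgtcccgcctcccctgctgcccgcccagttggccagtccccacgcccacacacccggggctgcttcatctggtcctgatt
Pcolce2: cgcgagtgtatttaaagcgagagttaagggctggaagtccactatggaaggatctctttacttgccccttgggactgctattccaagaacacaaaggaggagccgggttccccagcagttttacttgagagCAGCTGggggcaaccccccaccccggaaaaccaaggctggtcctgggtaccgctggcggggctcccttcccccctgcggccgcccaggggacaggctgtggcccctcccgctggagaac
The match in Tnxb is the AP-1 site, and the matches in Cilp, Pcolce and Pcolce2 are the E-box. The E-box stood in promoters of 7 of the 18 genes (Cilp, Dpt, Gsn, Islr, Nox4, Pcolce and Pcolce2) and in 13.0% of all 32851 windows of this length. Genes and windows are unlike units, as Gsn has several windows. The AP-1 site was in 1 gene (6.7% of windows) and the SMAD site in 3, Islr, Nox4 and Serpinf1 (17.1%). The homeobox core was in 1, Itgbl1 (4.8%), the TATA box in Ddr2 and Vim (12.4%) and the TEAD site in 0 (12.6%). Among genes with the E-box, Cilp and Pcolce rose in both genotypes, Islr fell in both, and Dpt and Gsn fell in WT alone. Pcolce2 passed in neither, and Nox4, kept through the TAC KO arrays alone, passed only in KO. Such a match describes letters only.

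After TAC 4 of the 7 resting genes fell in both genotypes: Tnxb, Scara5, Clec3b and Pi16. Of all 12260 genes tested 15.6% were lower in both. Tnxb encodes tenascin X, a matrix glycoprotein that spaces collagen fibrils. Its log2 values were 9.70, 9.42 and 9.71 in basal WT arrays 1 to 3 and 8.12, 8.05, 5.85 and 6.96 in TAC WT arrays 1 to 4. In the knockout it read 9.81, 9.83 and 9.68 in basal arrays and 7.85, 6.86, 7.28 and 6.92 after TAC. Every TAC array lay below every basal array, by more than a log2 unit, and TAC WT 3 was the lowest of all. The mean was 5.15-fold lower in WT (log2 -2.37, SE 0.43, limma adjusted p = 0.000947) and 5.84-fold lower in KO (log2 -2.55, SE 0.43, adjusted p = 0.000866).

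Scara5, a scavenger receptor that binds ferritin, read 9.54, 8.57 and 9.01 in basal WT and 8.53, 7.74, 5.70 and 6.26 in TAC WT. In the knockout it read 9.59, 9.67 and 9.08 in basal arrays and 8.46, 6.98, 7.71 and 6.36 after TAC. It had the widest spread of all members after TAC (SD 1.31 in WT and 0.91 in KO, n = 4 each), yet the groups did not overlap in either genotype. The mean was 3.95-fold lower in WT (log2 -1.98, SE 0.60, limma adjusted p = 0.0156) and 4.20-fold lower in KO (log2 -2.07, SE 0.60, adjusted p = 0.015). With basal WT 1 left out the WT difference missed the threshold (adjusted p = 0.0616), and with basal KO 2 left out so did the KO difference (adjusted p = 0.0506).

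Clec3b encodes tetranectin, a secreted lectin that binds plasminogen. It read 7.86, 7.78 and 7.73 in basal WT, 7.77, 8.25 and 7.72 in basal KO, 6.95, 6.83, 5.98 and 6.50 in TAC WT, and 6.97, 6.84, 6.75 and 6.36 in TAC KO. Again no TAC array reached a basal one, and the fall was of like size in WT (log2 -1.23, SE 0.22, limma adjusted p = 0.000779) and KO (log2 -1.18, SE 0.22, adjusted p = 0.00131). Pi16, a peptidase inhibitor family protein that marks adventitial fibroblasts, read 9.63, 9.02 and 9.01 in basal WT and 8.43, 8.86, 7.35 and 8.25 in TAC WT. Its KO values were 9.77, 10.27 and 9.58 in basal arrays and 9.33, 8.49, 8.78 and 8.65 after TAC. It fell in both (WT log2 -1.0, SE 0.31, limma adjusted p = 0.0177; KO log2 -1.06, SE 0.31, adjusted p = 0.0156). In WT Pi16 missed the threshold without basal WT 1 (adjusted p = 0.0811), in a fit on the WT arrays alone (0.0504) and with array weights (log2 -0.51, adjusted p = 0.0998), and in KO without basal KO 2 (0.0722).

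The remaining 3 resting genes did not share this fall. Dpt, the matrix protein dermatopontin, read 11.17, 10.78 and 11.01 in basal WT and 10.71, 10.87, 9.80 and 10.14 in TAC WT, with TAC WT 2 above basal WT 2. It read 11.05, 11.28 and 10.98 in basal KO and 11.18, 10.52, 10.95 and 10.84 in TAC KO. It passed as lower in WT (log2 -0.61, SE 0.23, limma adjusted p = 0.041) and not in KO (log2 -0.23, SE 0.23, adjusted p = 0.423), and the difference between these effects did not pass (log2 0.38, SE 0.32, adjusted p = 0.845). Dpt in WT missed the threshold without basal WT 1 (adjusted p = 0.131), basal WT 3 (0.0944), basal KO 1 (0.0515), basal KO 3 (0.0501), TAC WT 3 (0.106), TAC WT 4 (0.0993) or TAC KO 3 (0.0521). It was also lost with the replicate block (0.0701), with array weights (log2 -0.26, adjusted p = 0.255), after median centring (0.0713) and in a fit on the WT arrays alone (0.0979).

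Tcf21, the basic helix-loop-helix factor of the fibroblast lineage, read 8.39, 7.81 and 7.81 in basal WT, 7.92, 8.23, 7.92 and 7.86 in TAC WT, 8.22, 8.07 and 8.34 in basal KO, and 8.29, 8.69, 8.59 and 8.58 in TAC KO. Basal and TAC values overlapped in both genotypes, and neither difference passed (WT log2 -0.02, SE 0.15, limma adjusted p = 0.917; KO log2 0.33, SE 0.15, adjusted p = 0.0984). In KO it passed without basal WT 1 (adjusted p = 0.048) and with array weights (0.0312). Pdgfra, the receptor for PDGF-A and PDGF-C, was higher after TAC on the probe set that stands for it. There it read 8.97, 9.02 and 8.78 in basal WT and 9.38, 9.49, 9.46 and 9.51 in TAC WT, with 8.84, 9.46 and 9.18 in basal KO and 9.91, 9.64, 9.83 and 10.04 in TAC KO. The rise was log2 0.54 in WT (SE 0.14, limma adjusted p = 0.0065) and log2 0.69 in KO (SE 0.14, adjusted p = 0.00199), with no overlap in either. The other kept probe set of Pdgfra went the opposite way in WT (log2 -0.37, adjusted p = 0.045 over all probe sets) and did not pass in KO (log2 0.16, adjusted p = 0.382). With the mean of its probe sets the WT difference was log2 0.08 (adjusted p = 0.588) and the KO difference log2 0.43 (adjusted p = 0.0148), so the direction of Pdgfra in WT depends on the probe set.

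**Figure D1:**
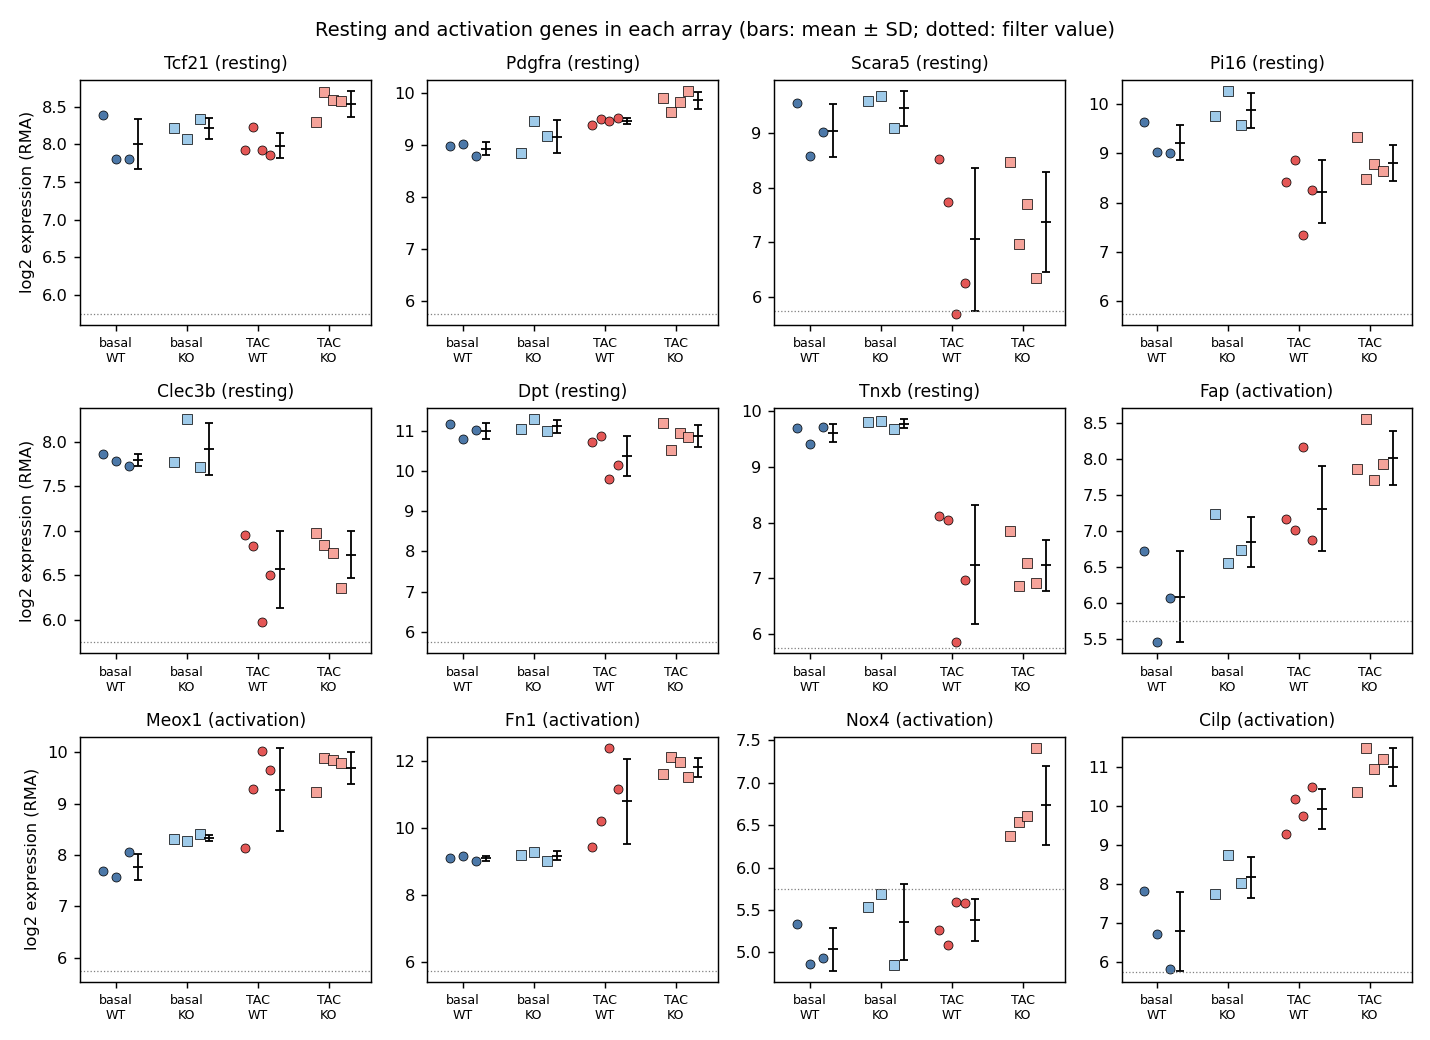
Log2 expression of the 7 resting and 5 activation genes (y axes, a scale of its own per gene) in each of the 14 arrays by group; the bars give mean ± SD and the dotted line the filter value of 5.75. Tnxb, Scara5, Clec3b and Pi16 sit lower in every TAC array than in any basal array of their genotype, and Nox4 exceeds the filter value in the TAC KO arrays alone.

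Of the 5 activation genes, 4 rose in both genotypes: Cilp, Fn1, Meox1 and Fap. Of all genes tested 18.7% were higher in both. Cilp encodes a matrix protein that binds TGF-beta. It read 7.83, 6.72 and 5.82 in basal WT, 9.28, 10.18, 9.74 and 10.47 in TAC WT, 7.74, 8.75 and 8.02 in basal KO, and 10.34, 11.48, 10.95 and 11.19 in TAC KO. The lowest TAC array lay above the highest basal array in both genotypes, although the 3 basal WT arrays spanned 2 log2 units. Cilp was 8.74-fold higher in WT (log2 3.13, SE 0.43, limma adjusted p = 0.000182) and 7.06-fold higher in KO (log2 2.82, SE 0.43, adjusted p = 0.00051).

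Fn1, fibronectin, is the provisional matrix on which collagen is laid down. Basal arrays were tight, at 9.11, 9.17 and 9.01 in WT and 9.20, 9.29 and 9.03 in KO. After TAC the WT arrays read 9.44, 10.21, 12.40 and 11.16 and the KO arrays 11.63, 12.12, 11.98 and 11.54. WT arrays thus ran from just above basal in TAC WT 1 to the highest value of the gene in TAC WT 3 (SD 1.28), while KO arrays lay close together (SD 0.28). Fn1 was 3.26-fold higher in WT (log2 1.71, SE 0.48, limma adjusted p = 0.0104) and 6.25-fold higher in KO (log2 2.64, SE 0.48, adjusted p = 0.00127). The WT call was lost in a fit on the WT arrays alone (adjusted p = 0.0571).

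Meox1 read 7.68, 7.57 and 8.05 in basal WT, 8.14, 9.28, 10.02 and 9.65 in TAC WT, 8.32, 8.28 and 8.40 in basal KO, and 9.22, 9.89, 9.85 and 9.79 in TAC KO. TAC WT 1 was barely above basal WT 3, and the other 7 TAC arrays were all at 9.22 or more. The rise was log2 1.51 in WT (SE 0.33, limma adjusted p = 0.0028) and log2 1.35 in KO (SE 0.33, adjusted p = 0.00623). Fap read 6.72, 5.46 and 6.07 in basal WT, 7.17, 7.01, 8.17 and 6.87 in TAC WT, 7.23, 6.56 and 6.74 in basal KO, and 7.86, 8.55, 7.70 and 7.93 in TAC KO. It rose by log2 1.22 in WT (SE 0.34, limma adjusted p = 0.00947) and by log2 1.17 in KO (SE 0.34, adjusted p = 0.0143), with no overlap. Fap missed the threshold without basal WT 2 in WT (log2 0.91, adjusted p = 0.0565) and without basal KO 2 in KO (adjusted p = 0.0591).

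Nox4, an NADPH oxidase that makes hydrogen peroxide, was below the filter value in the arrays of 3 groups. It read 5.33, 4.86 and 4.93 in basal WT, 5.26, 5.09, 5.60 and 5.58 in TAC WT, 5.53, 5.69 and 4.85 in basal KO, and 6.37, 6.54, 6.61 and 7.41 in TAC KO. All 4 TAC KO arrays lay above all 10 others, and Nox4 entered the test through those 4 arrays alone. A gene kept in this way had to be higher there, so its pass in KO (log2 1.38, SE 0.25, limma adjusted p = 0.00136) is given as a value and supports nothing. As basal KO was below the filter value, that difference is a lower bound and no fold is given. In WT it was log2 0.34 (SE 0.25, adjusted p = 0.267), and the difference between the genotypes' responses did not pass (log2 1.03, SE 0.36, adjusted p = 0.566).

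Per array, the mean of the 5 activation genes minus that of the 7 resting genes puts both shifts in 1 value. Levels of different probe sets are not comparable, so only differences between arrays are read from it, and it carries no test. It was -2.13 ± 0.12 (log2, mean ± SD, n = 3) in basal WT and -1.78 ± 0.08 (n = 3) in basal KO, and 0.41 ± 1.10 (n = 4) and 0.96 ± 0.55 (n = 4) after TAC. The 4 TAC WT arrays read -0.72, -0.23, 1.75 and 0.82, and the TAC KO arrays 0.23, 1.43, 0.86 and 1.32. All 8 TAC arrays exceeded the highest basal array (-1.69). The change with TAC was 2.53 in WT, 2.08 without TAC WT 3, and 2.74 in KO. Nox4, kept through the TAC KO arrays alone, is part of the activation mean and raises it there. Under a stricter filter (above 7.7), which leaves Nox4 out, the change was 2.84 in WT and 2.86 in KO. Within TAC WT the activation and resting means went opposite ways. TAC WT 3 lay 0.65 above its group mean in activation genes and 0.69 below it in resting genes, and TAC WT 1 lay 0.68 below and 0.45 above. TAC WT 1 had the lowest value of its group in 16 of the 31 members. The macrophage sum was 12.81 in TAC WT 1 and 14.56 in TAC WT 3, and the cell cycle sum 11.29 and 13.34. Their part in the spread of the members was not tested.

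**Figure D2:**
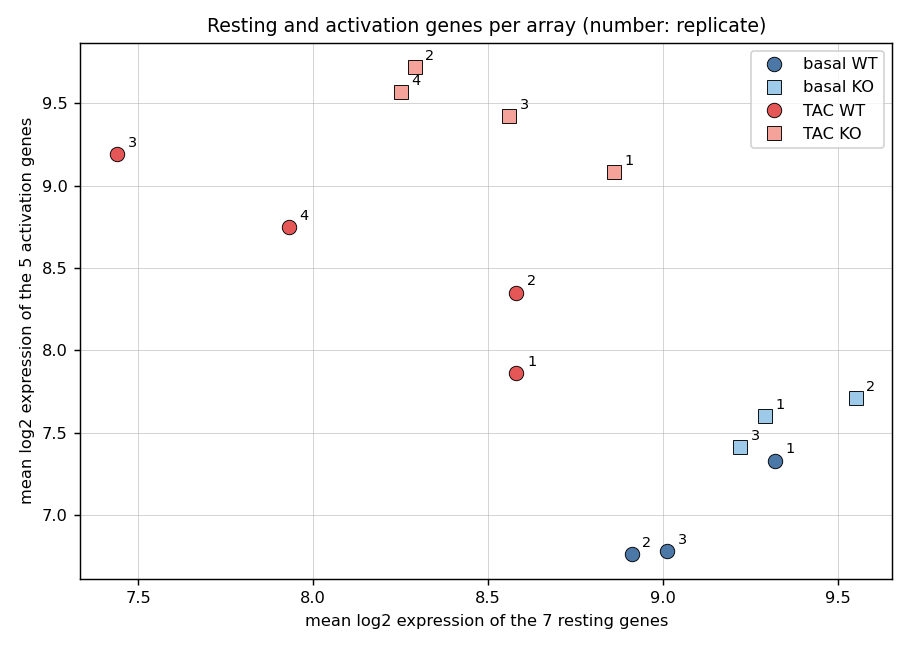
Mean log2 expression of the 5 activation genes (y axis) against that of the 7 resting genes (x axis), 1 point per array, with its replicate number. Basal arrays lie at the lower right, and TAC arrays lie higher and further left, with the 4 TAC WT arrays spread widest, from 7.86 to 9.19 on the y axis.

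Of the surface proteins outside these lists, Cdh11 and Clmp rose in both genotypes. The cadherin Cdh11, an adhesion molecule of mesenchymal cells, read 6.56, 5.62 and 6.66 in basal WT, 7.13, 7.57, 7.38 and 6.55 in TAC WT, 6.86, 6.84 and 6.87 in basal KO, and 7.90, 7.84, 8.03 and 7.82 in TAC KO. KO groups were tight and apart, whereas TAC WT 4 lay within the basal WT range. Cdh11 rose by log2 0.88 in WT (SE 0.25, limma adjusted p = 0.0103) and log2 1.04 in KO (SE 0.25, adjusted p = 0.00515). In WT it missed the threshold without basal WT 2 (log2 0.55, adjusted p = 0.0566) and in a fit on WT arrays alone (adjusted p = 0.0591). Clmp, a cell adhesion protein of the immunoglobulin family, rose by log2 0.41 in WT (adjusted p = 0.0154) and 0.40 in KO (adjusted p = 0.0198). It missed the threshold without basal WT 1 (adjusted p = 0.0628) or basal WT 3 (0.0602) in WT and without basal KO 3 in KO (log2 0.27, adjusted p = 0.106).

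Pdgfrl, a secreted relative of the PDGF receptors, passed in KO (log2 0.95, SE 0.20, limma adjusted p = 0.00277). It read 5.78, 5.99 and 6.21 in basal KO and 6.57, 7.54, 6.85 and 6.82 in TAC KO. In WT it read 5.86, 5.82 and 5.78 in basal arrays and 5.72, 6.13, 6.33 and 6.07 after TAC, which overlap (log2 0.24, adjusted p = 0.322). The difference between these responses did not pass (log2 0.71, SE 0.28, adjusted p = 0.59). Mxra8, an adhesion protein, passed in KO (log2 0.45, adjusted p = 0.0415), and missed it without basal WT 3, any basal KO array, TAC WT 2 or 4, or TAC KO 2, 3 or 4 (adjusted p = 0.0504 to 0.122). It also missed it with the replicate block (0.0725) and after quantile normalization (0.0674). In WT Mxra8 was at log2 0.34 (adjusted p = 0.0948), and passed without basal WT 1 (log2 0.55, adjusted p = 0.0128). Ddr2, a collagen receptor kinase, was at log2 0.00 in both genotypes on the probe set that stands for it. The other kept probe set of Ddr2 was higher in WT (log2 0.53, adjusted p = 0.00944 over all probe sets) and in KO (log2 0.40, adjusted p = 0.0424). Thy1, the glycoprotein of many stromal cells, and the pericyte and fibroblast protein Cd248 did not pass (log2 0.66 and 0.42 in WT, 0.84 and 0.19 in KO). Thy1 ran from 6.87 in TAC WT 1 to 8.96 in TAC WT 3, and passed in WT without TAC WT 1 (log2 0.96, adjusted p = 0.0167). In KO Thy1 passed without TAC WT 1 (adjusted p = 0.0262) or TAC WT 3 (0.00514), in a fit on the KO arrays alone (log2 0.85, adjusted p = 0.000746) and with array weights (0.000997). In WT Cd248 passed without TAC WT 1 (adjusted p = 0.0014), with array weights (0.0127) and with array medians set equal (0.0287).

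Among secreted proteins Fstl1 and Islr moved most. Fstl1, a glycoprotein that the epicardium and fibroblasts release, read 9.93, 9.75 and 9.98 in basal WT, 10.83, 11.75, 12.56 and 12.23 in TAC WT, 10.43, 10.59 and 10.16 in basal KO, and 11.97, 12.70, 12.45 and 12.49 in TAC KO. No TAC array overlapped a basal one, and Fstl1 was 3.88-fold higher in WT (log2 1.96, SE 0.31, limma adjusted p = 0.00044) and 4.03-fold higher in KO (log2 2.01, SE 0.31, adjusted p = 0.000555). Islr, also called meflin, a membrane-anchored leucine-rich repeat protein of mesenchymal stromal cells, went down. It read 9.15, 8.73 and 9.11 in basal WT, 8.29, 8.24, 7.06 and 6.80 in TAC WT, 9.65, 9.43 and 9.43 in basal KO, and 8.92, 8.53, 8.57 and 8.10 in TAC KO. It fell by log2 1.40 in WT (SE 0.32, limma adjusted p = 0.00369) and by log2 0.97 in KO (SE 0.32, adjusted p = 0.027). In KO Islr missed the threshold when basal KO 1 (adjusted p = 0.0835), basal KO 2 (0.0586), basal KO 3 (0.0585) or TAC KO 4 (0.0764) was left out.

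Serpinf1, which encodes the antiangiogenic protein PEDF, passed in KO (log2 0.62, limma adjusted p = 0.0224) and not in WT (log2 0.37, adjusted p = 0.129). Its KO call was lost without basal KO 3 (log2 0.46, adjusted p = 0.11), TAC KO 2 (0.0516) or TAC KO 3 (0.0518) and with the mean of its probe sets (0.06), and it passed in WT without TAC WT 1 (0.0444). The other kept probe set of Serpinf1 passed in neither genotype over all probe sets. It was at log2 -0.21 in WT (limma adjusted p = 0.235) and log2 0.18 in KO (adjusted p = 0.311). Itgbl1, an integrin beta-like secreted protein, passed in KO as well (log2 0.84, adjusted p = 0.0245), with log2 0.47 in WT (adjusted p = 0.157). Itgbl1 in KO missed the threshold when basal KO 1 (0.0518), basal KO 3 (log2 0.54, adjusted p = 0.13), TAC KO 2 (0.0544), TAC KO 3 (0.0622) or TAC KO 4 (0.0509) was left out. In WT it passed without basal WT 1 (log2 0.79, adjusted p = 0.0293). Mgp, the matrix Gla protein that limits calcification, and Ccdc80, a matrix-bound protein, did not pass. Mgp lay between 12.22 and 13.49 in all arrays (log2 -0.24 in WT, 0.28 in KO), and Ccdc80 between 10.37 and 11.29 (log2 0.30 and 0.25). Ccdc80 passed in WT without TAC WT 1 (log2 0.41, adjusted p = 0.0093), with array weights (0.0422) and with array medians set equal (0.026), and in KO with array weights (0.0137).

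The procollagen enhancers Pcolce and Pcolce2 help cut the end of fibrillar procollagens, and they differed. Pcolce read 10.19, 10.09 and 10.15 in basal WT, 10.94, 11.36, 11.77 and 11.57 in TAC WT, 10.46, 10.84 and 10.47 in basal KO, and 11.43, 11.85, 11.78 and 11.79 in TAC KO. It was 2.41-fold higher in WT (log2 1.27, SE 0.17, limma adjusted p = 0.000194) and 2.18-fold higher in KO (log2 1.12, SE 0.17, adjusted p = 0.000578), with no overlap. Pcolce2 read 8.82, 8.37 and 8.68 in basal WT, 8.31, 8.45, 9.27 and 8.91 in TAC WT, 8.72, 8.91 and 8.56 in basal KO, and 8.61, 8.67, 8.97 and 8.83 in TAC KO. Those groups overlapped throughout, at log2 0.11 in WT (SE 0.20, adjusted p = 0.657) and log2 0.04 in KO (SE 0.20, adjusted p = 0.886). Aebp1, a collagen-binding protein, did not pass either (log2 -0.15 in WT and 0.29 in KO), except in KO with array weights (adjusted p = 0.0435).

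Inside the cell, the intermediate filament Vim and the actin-severing protein Gsn went opposite ways. Vim read 12.35, 12.38 and 12.08 in basal WT, 12.16, 12.64, 13.67 and 13.18 in TAC WT, 12.35, 12.17 and 12.25 in basal KO, and 13.16, 13.38, 13.30 and 13.58 in TAC KO. It rose in KO (log2 1.10, SE 0.26, limma adjusted p = 0.00531), and in WT it was at log2 0.64 (SE 0.26, adjusted p = 0.054). Its other 2 kept probe sets passed in WT too (log2 1.22 and 1.55, adjusted p = 0.00344 and 0.00172 over all probe sets). Without TAC WT 1, Vim passed in WT (log2 0.89, adjusted p = 0.00327), as it did without TAC WT 2 (adjusted p = 0.0454). It also passed in WT with array medians set equal (0.0364) and when its probe sets were averaged (log2 1.14, adjusted p = 0.00589).

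Gsn read 13.14, 13.00 and 13.11 in basal WT, 12.57, 12.68, 11.09 and 11.43 in TAC WT, 12.85, 13.09 and 13.17 in basal KO, and 12.73, 11.74, 12.35 and 12.09 in TAC KO. Every TAC array lay below every basal array of its genotype. Gsn fell in WT (log2 -1.14, SE 0.34, limma adjusted p = 0.0137; log2 -0.60 with array weights, adjusted p = 0.0667) and missed the threshold in KO (log2 -0.81, SE 0.34, adjusted p = 0.066). In KO it passed without TAC WT 1 (adjusted p = 0.047), 2 (0.044) or 3 (0.0266) or TAC KO 1 (0.0401). It also passed there with array weights (0.0138), in a fit on the KO arrays alone (0.0106), with the mean of its probe sets (log2 -1.04, adjusted p = 0.0301) and without probe sets ending in _x_at or _s_at (log2 -1.42, adjusted p = 0.0106). Of its 4 kept probe sets 4 passed as lower in WT and 3 in KO. The globin Cygb passed in KO (log2 0.46, adjusted p = 0.0249), with log2 0.35 in WT (adjusted p = 0.0633). In KO Cygb missed the threshold when basal KO 1 (0.0798), basal KO 3 (0.0823) or TAC KO 4 (0.0698) was left out, with the replicate block (0.0555) and after quantile normalization (0.0583). In WT it passed without TAC WT 3 (0.0227), with array weights (0.00339) and with array medians set equal (0.0344).

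**Figure D3:**
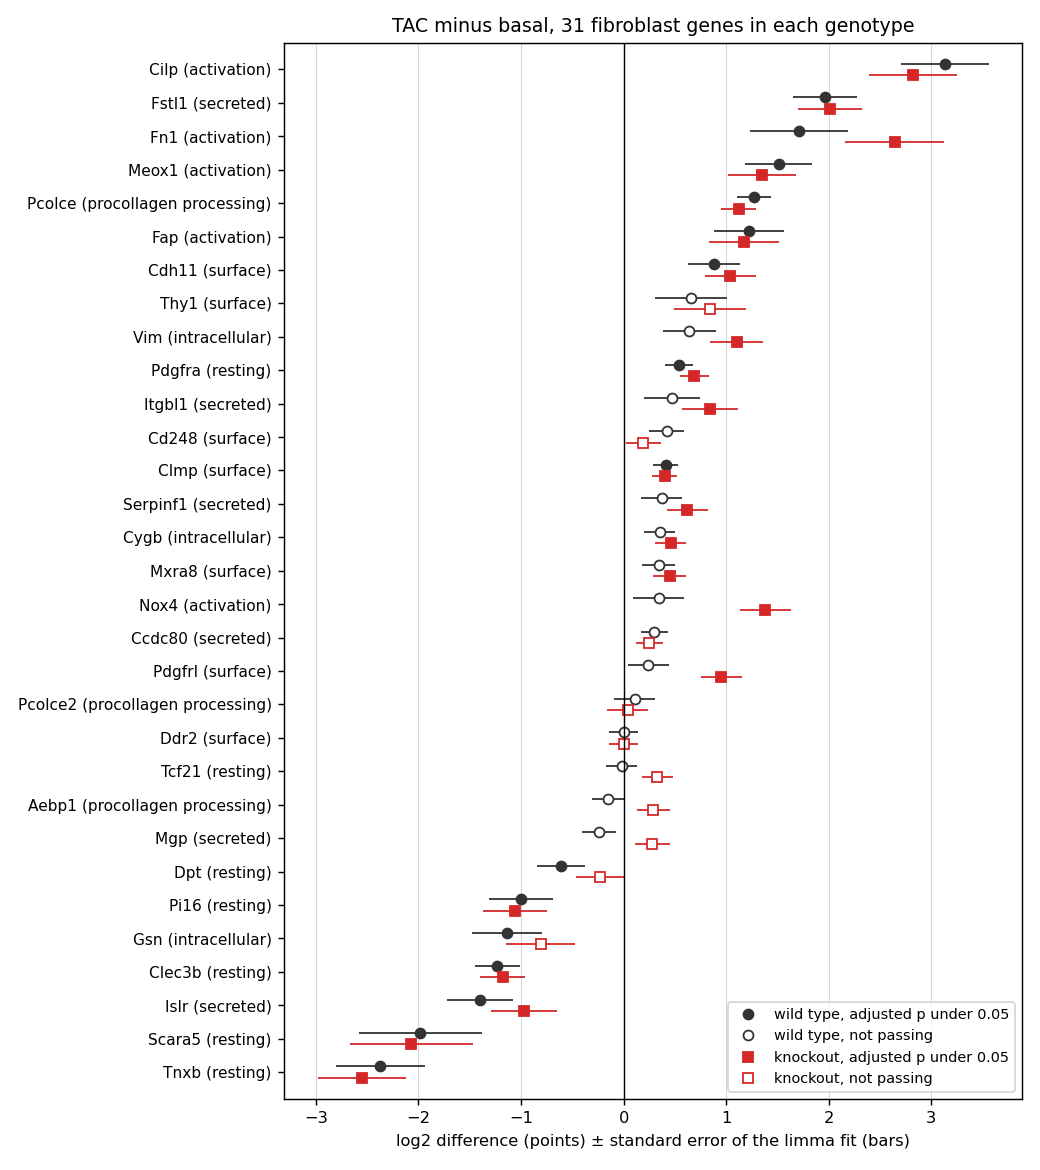
Log2 difference of TAC minus basal for all 31 genes, with the standard error of the limma fit, in wild type (circles) and knockout (squares); filled symbols passed an adjusted p of 0.05. Cilp, Fstl1 and Fn1 are at the top and Islr, Scara5 and Tnxb at the bottom in wild type, and no difference between the genotypes' responses passed.

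In all, 9 of the 31 members were higher after TAC in WT, where 26.9% of all tested genes were, and 7 were lower, where 23.8% of all genes were, so that 16 passed in either direction (50.7% of all genes). In KO 16 were higher, Nox4 among them (22.7% of all genes), and 5 lower (21.8%), 21 in all (44.5%). The TAC arrays lay apart from the basal ones for 14 members in WT (49.9% of all genes) and for 24 in KO (54.3%). In WT these shares are near the background. The median member was at log2 0.34 in WT and 0.45 in KO, against 0.02 and -0.02 over all genes tested. Without TAC WT 1, 14 members passed as higher in WT (29.4% of all genes), and without basal WT 1, 4 passed as lower (19.8%). Without basal KO 2, 2 members passed as lower in KO (16.0%). The WT count of 9 and 7 was 13 and 6 with array medians set equal, and 9 and 7 after quantile normalization. These scalings moved the median of all genes in WT from log2 0.02 to 0.10 and -0.10. Members passed in the same direction in both genotypes for 9 higher (18.7% of all genes) and 5 lower (15.6%), and in opposite directions for 0 (0.0163%). They passed in WT alone for 2, Dpt and Gsn (16.4%), and in KO alone for 7 (10.2%). No difference between the genotypes' responses passed for any member in limma (smallest adjusted p = 0.566), with 2 of 31 at an unadjusted p under 0.05 (Nox4 and Pdgfrl), as against 952 of 12260 genes.

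Where a gene had several kept probe sets they could be set side by side. Of 10 such genes, 5 had the same call on every probe set in both genotypes (Aebp1, Ccdc80, Fn1, Fstl1 and Pcolce). The other 5 were Ddr2, Gsn, Pdgfra, Serpinf1 and Vim. Pdgfra alone had probe sets called in opposite directions, in WT. Fn1 was higher on its second probe set by more than on the first (log2 2.66 in WT, 3.69 in KO), where basal means of 4.38 and 4.37 lay below the filter value, so these are lower bounds. Fstl1 rose on its second probe set by log2 1.76 in WT and 1.97 in KO.

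**Figure D4:**
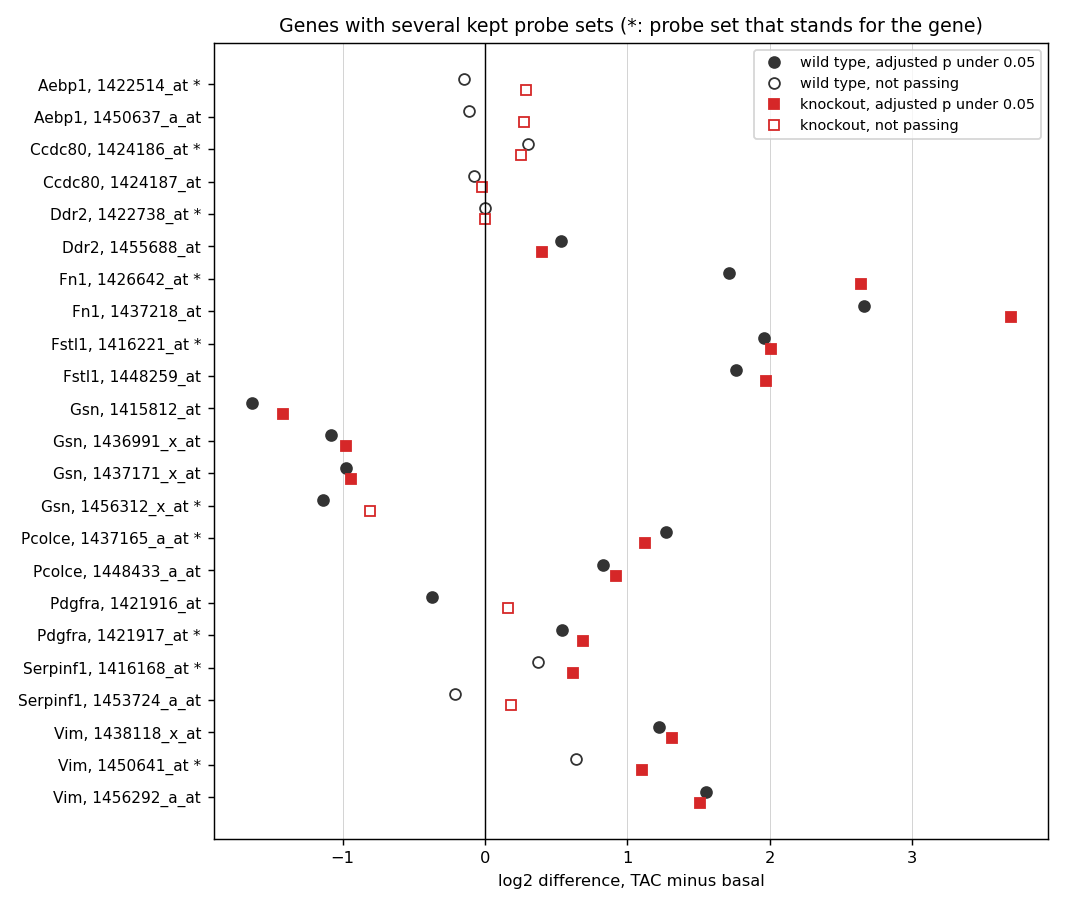
Log2 difference of TAC minus basal on each kept probe set (y axis) of the 10 genes with several, in wild type (circles) and knockout (squares); filled symbols passed over all probe sets and an asterisk marks the probe set that stands for the gene. All 4 probe sets of Gsn lie below 0 and all 3 of Vim above, while the 2 of Pdgfra lie on opposite sides of 0 in wild type at -0.37 and 0.54.

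The comparison of genotypes asks whether loss of Hspb8 shifts these genes at rest or under load. No member passed in either condition in limma, but most members lay on the KO side in both. The members are read on the same arrays, so they are not independent replicates, and counts of them are no test of genotype. Basal WT 1 was the highest array of its group in 20 of the 31 members, and basal WT 2 the lowest in 20. In basal hearts 28 of 31 were higher in KO (53.4% of all genes were), with a median of log2 0.36 against 0.01 over all genes. The KO and WT arrays did not overlap for 9 members, all higher in KO, where 7.46% of all genes were higher without overlap and 13.6% separated in either direction. Unadjusted p was under 0.05 for 9 members and for 707 of all genes. With 1 basal array left out the median lay between log2 0.23 (without basal WT 2) and 0.44 (without basal KO 3), and was 0.28 without basal KO 2, with 27 to 29 members above 0. Clmp had the smallest p (log2 0.46, SE 0.13, adjusted p = 0.608), with 6.31, 6.65 and 6.34 in basal WT and 7.10, 6.97 and 6.62 in basal KO, which overlap. Cilp was at log2 1.38 (SE 0.46, adjusted p = 0.745) and Mxra8 at log2 0.52 (SE 0.18, adjusted p = 0.76).

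After TAC 30 of 31 members were higher in KO than in WT, Tnxb alone being lower (log2 -0.02), and 46.0% of all genes were higher. The median member was at log2 0.48, against -0.02 over all genes. Here too the members are not independent, and TAC WT 1 had the lowest value of its group in 16 of them. For 9 members, all higher in KO, the 4 KO arrays lay above the 4 WT arrays, where 1.69% of all genes did so and 3.99% separated in either direction: Nox4, Pdgfrl, Itgbl1, Mxra8, Clmp, Tcf21, Mgp, Cdh11 and Pdgfra. Itgbl1 read 7.49, 7.34, 7.15 and 7.18 in TAC WT and 8.01, 8.60, 8.72 and 8.48 in TAC KO (log2 1.16, SE 0.25, limma adjusted p = 0.29). Nox4 was at log2 1.35 (SE 0.23, adjusted p = 0.106) and Pdgfrl at log2 0.88 (SE 0.19, adjusted p = 0.281), and Tcf21 at log2 0.56 (SE 0.14, adjusted p = 0.304). The limma test called 0 members and 1 gene in all (0.00816%), with 18 members and 998 genes at an unadjusted p under 0.05. Nox4 entered through the TAC KO arrays, so its place in these counts follows from the filter. Its TAC WT mean (5.38) was below the filter value, so its difference is a lower bound.

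This count depends on how the arrays are weighted. Without TAC WT 3, 4 members passed as higher in KO: Fn1 (log2 1.55, adjusted p = 0.031), Nox4 (log2 1.42, adjusted p = 0.0277), Pdgfrl (log2 0.97, adjusted p = 0.038) and Serpinf1 (log2 0.78, adjusted p = 0.0407). In that fit 0.671% of all genes were higher and 0.811% passed in either direction. Array weights gave TAC WT 3 the lowest weight (0.187) and TAC KO 3 the highest (4.73). TAC WT 2 had 3.52, against 0.187 to 0.746 in the other TAC WT arrays. The other TAC KO arrays had 0.419 to 1.27. The weighted difference thus rests mostly on TAC KO 3 and TAC WT 2. With array weights 20 members passed as higher and 0 as lower. Of all genes 10.2% were higher there and 23.5% passed in either direction. With these weights 27 of the 31 were above 0. Nox4 is in both counts of passing members through the filter, so its passes support nothing, and its differences are lower bounds. With the replicate number as a block 0 members and 0 of all genes passed. Macrophage markers were also on the KO side by their median, log2 0.39 over 12 genes in basal hearts (-0.94 to 0.77) and 0.42 after TAC. In basal hearts 6 of them separated in either direction (13.6% of all genes), as did 9 of 24 further resting fibroblast genes and 5 of 12 endothelial genes. After TAC 0 macrophage genes separated (3.99% of all genes). In the same comparison 5 of 24 further resting fibroblast genes did, with 0 of 22 further activation genes and 1 of 12 endothelial genes. Separation after TAC was thus not particular to the members. Medians after TAC were also above 0 for further resting (log2 0.32) and activation genes of fibroblasts (0.44) and for epicardial genes (0.44). The same held for cell cycle genes (0.39), Schwann cell genes (0.23) and adipocyte genes (0.20). Medians were near 0 for TGF-beta and PDGF (0.05), smooth muscle (0.03) and cardiomyocyte genes (-0.02), and endothelial genes lay on the WT side (-0.17). In basal hearts the fibroblast lists had medians of 0.26 and 0.17, epicardial genes 0.24, cell cycle genes 0.08 and cardiomyocyte genes 0.00. The part of other cells in the members' differences was not tested.

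**Figure D5:**
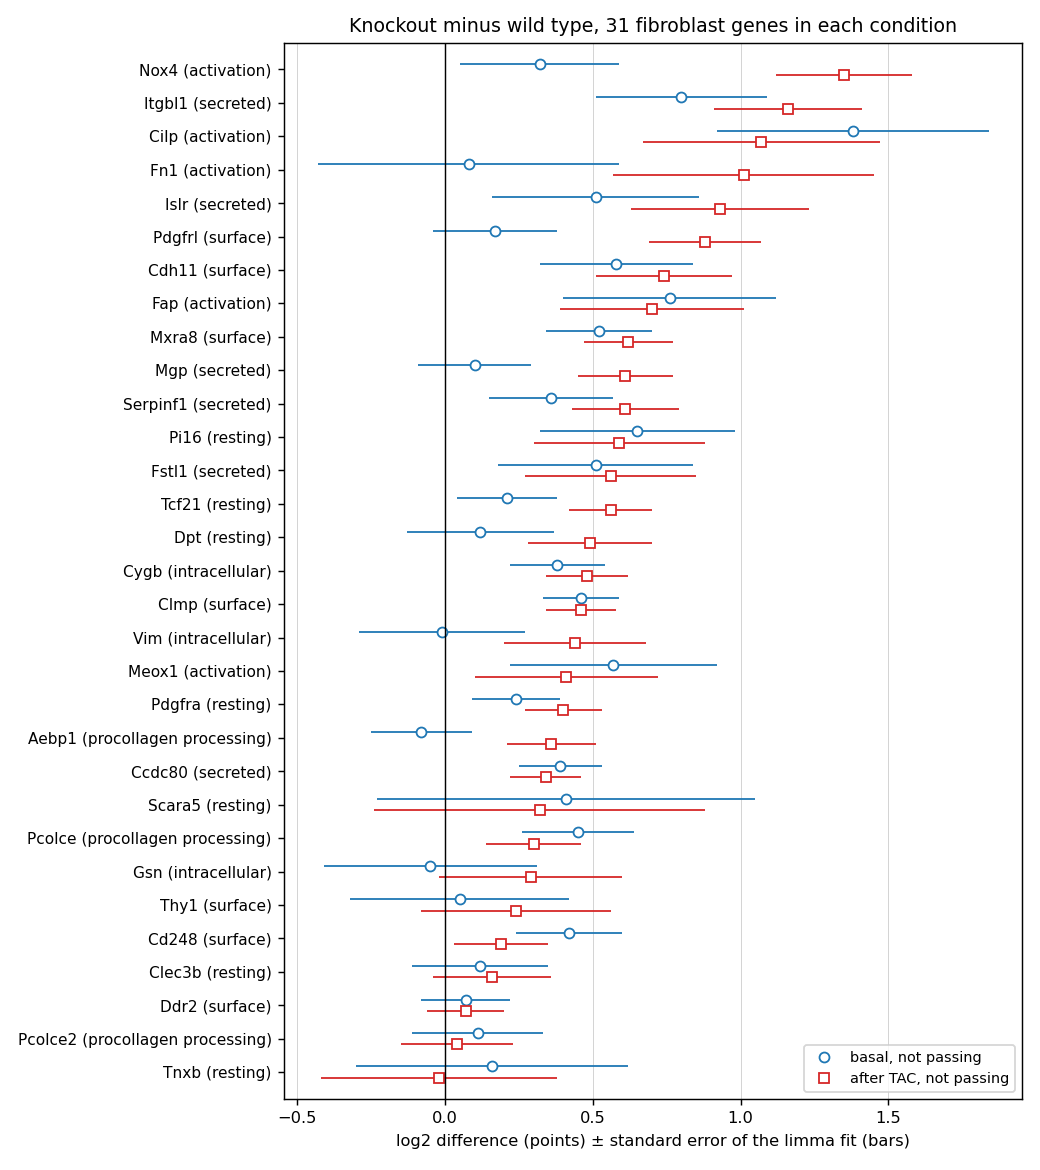
Log2 difference of KO minus WT for all 31 genes, with the standard error of the limma fit, in basal hearts (circles) and after TAC (squares); open symbols show that none passed an adjusted p of 0.05. All but 3 circles and 1 square lie above 0, with Nox4 at 1.35 and Itgbl1 at 1.16 after TAC.

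Other genes of fibroblasts give the setting. Of all genes tested 26.9% were higher and 23.8% lower after TAC in WT, and 22.7% and 21.8% in KO. Of 24 further genes of resting fibroblasts, 8 were higher and 7 lower in WT (median log2 0.13), and 9 and 3 in KO (median log2 -0.05). This group thus went both ways, and its WT counts are near the background. Igfbp6, which binds insulin-like growth factors, was lower (log2 -1.07 in WT and -1.25 in KO), while the microfibril protein Mfap5 was higher (log2 1.47 and 1.88). Of 22 further activation genes, 13 were higher and 4 lower in WT (median log2 1.56), and 15 and 3 in KO (median log2 1.72). The matricellular protein Thbs4 was 5.57-fold and 4.47-fold higher and periostin, Postn, 7.50-fold and 7.11-fold. The lower genes were Fmod (log2 -1.41 and -0.93), Runx1 (log2 -0.62 and -0.69) and Il11 (log2 -0.69 and -0.61), and in WT alone Comp (log2 -1.34). In the TGF-beta and PDGF pathways 7 of 17 genes were higher and 2 lower in WT, and 8 and 2 in KO. The ligand Tgfb2 was 4.31-fold and 4.44-fold higher. The receptor genes Tgfbr1 (log2 1.21 and 1.13), Tgfbr2 (log2 0.84 in both) and Pdgfrb (log2 1.55 and 1.23) were higher too. Smad3 was lower in both (log2 -0.54 and -0.53), Smad6 in WT (log2 -0.76) and Pdgfb in KO (log2 -0.58). The ligand Tgfb1 and the receptor Tgfbr3 passed in neither genotype.

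Markers of other cells moved with TAC as well. The shares of all genes to set beside these counts are 26.9% higher and 23.8% lower in WT, and 22.7% and 21.8% in KO. Macrophage genes were higher for 10 of 12 in each genotype, with the summed level on the log2 scale at 12.30 to 12.61 in basal WT, 12.81 to 14.56 in TAC WT, 12.61 to 12.87 in basal KO and 13.63 to 13.96 in TAC KO. Cell cycle genes were higher for 8 of 11 in each genotype, the proliferation marker Mki67 by 6.82-fold and 8.60-fold. Endothelial genes were lower for 7 of 12 in WT and 6 in KO, and higher for 0, with Tie1 at log2 -1.02 and -1.52. Of 10 smooth muscle and pericyte genes 2 rose and 3 fell in WT, and 1 rose and 3 fell in KO. Among 12 cardiomyocyte genes 1 rose and 1 fell in WT, and 0 rose and 2 fell in KO, with muscle creatine kinase, Ckm, at log2 -1.34 and -1.65. All listed macrophage, endothelial, smooth muscle and cardiomyocyte genes passed the filter, and 11 of 12 cell cycle genes did. Their part in the changes of the members was not tested.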

How the data were processed

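Total RNA was measured on 14 one-colour Affymetrix arrays (Mouse430_2). The deposited values are log2 expression per probe set, made by the authors with RMA, per the submitters' processing notes. The sources used here give neither the version nor whether basal and TAC arrays were normalized as 1 set. Probe sets took symbols from the platform annotation, updated through RefSeq (34958 with 1 symbol, 932 several, 9211 none). A linear model with 4 groups was fitted to all arrays in R 4.3.3 with limma 3.58.1 (10 residual degrees of freedom), with Benjamini-Hochberg adjustment over 12260 genes and a threshold of 0.05. SE is the model's standard error. The fit was tested on simulated data. A difference is a lower bound where the lower group's mean is below the filter value. The members, lists, motifs and tests were chosen with earlier results of these data known. All 31 members are named, and every array's value is given for the resting and activation genes and for the largest changes elsewhere. Up to 4 genes with the smallest p are named per other list. Further genes, chiefly those that fell, are named in the activation and pathway lists. Alternatives were the filter, the probe set rule, quantile normalization, median centring, a fit on fewer arrays, trend and robust eBayes, array weights, the replicate block and each array left out. Leaving out probe sets ending in _x_at or _s_at was chosen after seeing the data.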

Additional observations from a re-analysis of the deposited data

Results flagged for a closer look

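Values of single arrays in the TAC groups stood apart for 3 genes, by the gap to the nearest array over the range of the group. In TAC WT 2, Tcf21 read 8.23, above 7.86 to 7.92 in the other TAC WT arrays. In TAC KO 1, Meox1 read 9.22, below 9.79 to 9.89 in the others, and Pcolce read 11.43, below 11.78 to 11.85. In all 62 such groups of members were looked at, and chance flags about 1 in 20.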

How the results depend on the processing

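The direction of the shift from resting to activation genes was the same in every alternative run (2.08 to 2.91 in WT with each array left out, 2.58 to 2.98 in KO; 2.53 to 2.84 and 2.74 to 2.88 in the others). With each array left out in turn, members higher after TAC ranged from 7 to 14 in WT and from 11 to 17 in KO, and members lower from 4 to 7 and from 2 to 6. In the same fits 21.2% to 29.4% of all genes were higher in WT and 17.6% to 25.6% in KO, and 18% to 26.4% and 15.9% to 24.5% were lower. Members called between genotypes after TAC ranged from 0 to 4, and were 0 in basal hearts and for the difference of effects. With array weights 4 members were lower in WT (24.3% of all genes). In that fit 20, Nox4 among them through the filter, were called between genotypes after TAC (23.5%). All genes called there numbered 1 as fitted, 2880 with array weights, 99 without TAC WT 3 and 19 without TAC WT 4, and for the difference of effects 0 and, with array weights, 166. The cause was not tested. Among all genes in WT, 3298 higher and 2916 lower became 2579 and 3673 after quantile normalization and 3792 and 2230 after median centring. Of 3824 values of single members under an alternative, 56 lost and 57 gained a call, and no called one changed sign. The run on every probe set was read there only on the probe set that stands for the gene. It could thus not show an opposite call on another probe set, such as that of Pdgfra in WT. Samples with the same replicate number shared only a number (deviations correlated with r of -0.07 to 0.59). With the replicate block, 9 members were higher and 6 lower in WT (25.2% and 20.9% of all genes). In KO they were 14 and 5 (20.6% and 18.6%). The stricter filter (above 7.7) left 27 members. The number of arrays limits precision.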

Other observations

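Markers of 3 further cell types were measured. Of all genes tested 26.9% were higher and 23.8% lower in WT, and 22.7% and 21.8% in KO. Of 7 epicardial and mesothelial genes, 2 were higher and 1 lower after TAC in WT, and 3 and 0 in KO. Aldh1a2, which makes retinoic acid, was 6.59-fold higher in WT (limma adjusted p = 0.00122) and 7.25-fold in KO (adjusted p = 0.00126), and the T-box factor Tbx18 was at log2 0.87 and 1.03. Wt1 was lower in WT (log2 -0.49, adjusted p = 0.0115) and did not pass in KO (log2 -0.14, adjusted p = 0.427). Of 5 genes of Schwann cells, the sheath cells of nerves, 3 were lower in WT and 0 higher, and 1 was lower and 1 higher in KO, with myelin basic protein, Mbp, at log2 -0.61 and -0.71. Of 3 adipocyte genes, 1 was lower in WT, Retn (log2 -0.36, adjusted p = 0.0382), and 0 passed in KO.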
